A study of Homo sapiens with 8 samples.

Results

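Nuclear receptors were read in RNA-seq profiles of 8 human cancer cell lines. The set held 45 named receptor genes, taken from 58202 gene rows by gene symbol. Levels are FPKM, which scales fragment counts by transcript length and by library size, as deposited by the authors. A receptor was called detected in a line at an FPKM of 1 or more. Of the 45 receptors, 35 were detected in at least 1 line and 10 were detected in none.

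The study asked how expression profiles of ERBB4-expressing cancer lines relate to their response to ibrutinib, a kinase inhibitor. Its design text speaks of 4 responsive and 4 non-responsive lines, but the sample labels used here do not say which line is which, so no comparison by response was made. All lines were human tumour lines grown for 48 h at passages between 3 and 15. No treatment or engineered allele is given in the labels.

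Lung lines were H522 (non-small cell lung cancer), H661 (large cell lung cancer) and H146 (small cell lung cancer). Endometrial lines were KLE (endometrial adenocarcinoma) and HEC59 (endometrial carcinoma). COV318 was an epithelial-serous ovarian line, H716 a colorectal adenocarcinoma line from the cecum, and 1321N1 an astrocytoma line of glial origin. Each line had 1 library, so a single line's level has no replicate error. Lines of 1 tissue were different tumours, and every p-value below measures the spread between lines.

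Marker genes matched the labelled tissue in some lines and not in others. Of 6 Mullerian markers, KLE reached an FPKM of 1 for 6, HEC59 for 5 and COV318 for 4, with summed levels of 120.28 to 260.06 FPKM against 1.0 to 14.2 FPKM in the other 5 lines. H146 reached 1 for 5 of 6 neuroendocrine markers. Among 6 lung lineage markers, only NKX2-1 in H661 (11.2 FPKM) reached 1, and SFTPA1 and SCGB1A1 were listed at 0 in all 8 lines. In 1321N1, GFAP was at 3.10 FPKM, while OLIG1, S100B and AQP4 were listed at 0. H716 held CDH17 at 137 FPKM but CDX1 and MUC2 at 0, and it also reached 1 for 4 of 6 neuroendocrine and 3 of 6 hepatocyte markers.

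Between 12205 and 13300 genes reached an FPKM of 1 per line. No counts were used, so absolute depth is unknown. The spacing of the lowest FPKM values put relative depth between 1 (KLE) and 2.69 (1321N1) times the shallowest line. By that spacing the lines were also divided into 2 sets, set A with H522, H661, KLE and H716, and set B with 1321N1, HEC59, COV318 and H146. Pairs of lines shared their commonest step ratio at 20.28% of low genes on average within a set and 10.86% between sets. The division was not clean, since KLE and COV318, of different sets, shared it at 17.7% and H522 and KLE, of the same set, at 15.6%. Differences within each set are given beside the receptors named in the tissue comparisons. Some of these rest on 1 line in the group. For endometrial lines that line was KLE in set A and HEC59 in set B. For endometrial and ovarian lines it was KLE in set A, and for lung lines H146 in set B. The labels do not say what the sets are. In bulk RNA, fewer cells expressing a gene and less RNA per cell cannot be told apart.

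Nuclear receptors are transcription factors that bind DNA directly, and many of them are switched by small lipid-soluble ligands such as steroids, thyroid hormone, retinoic acid, fatty acids and oxysterols. Steroid receptors act mostly as homodimers. Thyroid, retinoic acid, vitamin D, fatty acid and oxysterol receptors act as heterodimers with a retinoid X receptor. Orphan members have no settled natural ligand, and several of them set cell identity during development.

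**Figure D1:**
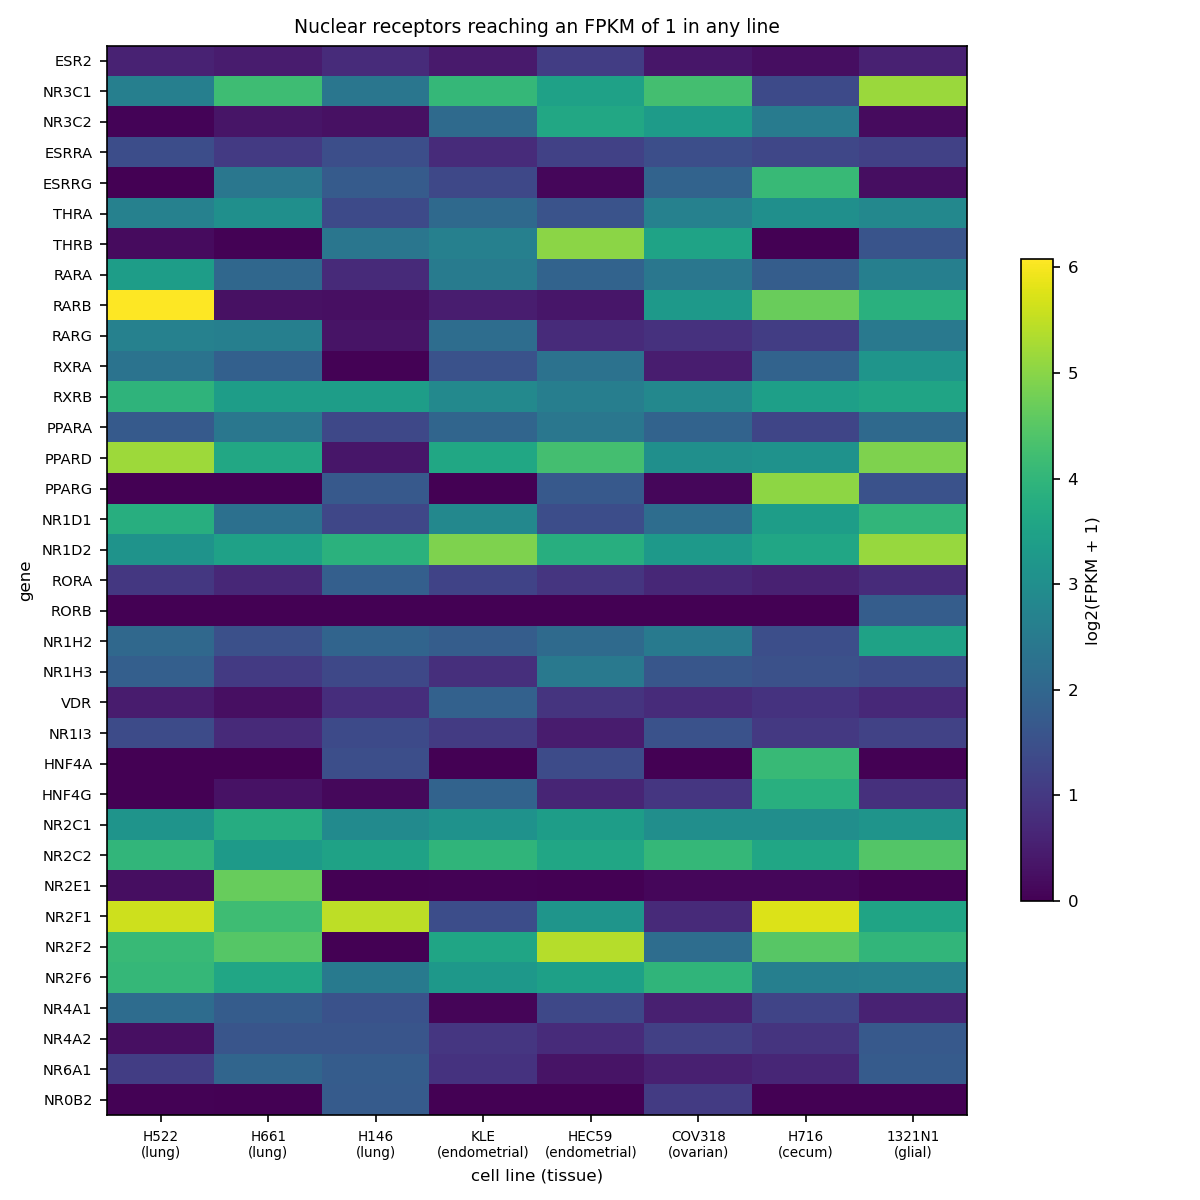
Level of each of the 35 nuclear receptors that reached an FPKM of 1 in any line, as log2(FPKM + 1) by colour, in the 8 cell lines (columns, with tissue). RARB in H522 (66.5 FPKM) is the brightest cell. NR2E1 is high only in the H661 column (24.3 FPKM), and RORB reaches 1 only in the 1321N1 column, at a low level (2.46 FPKM).

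Retinoic acid receptors showed the highest single receptor level in the series and an isotype that changed from line to line. RARB (ENSG00000077092), the retinoic acid receptor isotype best known as a target gene of retinoic acid itself, was the leading receptor of H522. The best-studied route of that control is a direct repeat in its promoter, and the same arrangement lies upstream of CYP26A1, the enzyme that degrades retinoic acid. RefSeq promoter sequences of both genes are therefore shown. They are from GRCh38.p14, while the deposited files used GRCh37. The search was for GTTCAC followed after 5 further bases by GTTCA, on either strand, and capitals mark the letters that matched.

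RARB, chr3:25428143-25428262, plus strand: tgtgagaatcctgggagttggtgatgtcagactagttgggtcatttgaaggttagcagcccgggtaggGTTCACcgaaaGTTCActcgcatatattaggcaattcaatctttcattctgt
CYP26A1, chr10:93073773-93073892, plus strand: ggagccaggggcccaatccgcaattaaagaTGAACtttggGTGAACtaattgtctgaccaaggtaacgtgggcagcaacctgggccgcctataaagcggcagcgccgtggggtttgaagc

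The RARB match spans 25428211 to 25428226 and ends 36 bases before a listed start of the gene, 1 of 4 starts in the table. In CYP26A1 the match is on the opposite strand, spans 93073803 to 93073818, and lies 74 bases before 1 of 2 starts. Across 35116 promoter windows of 300 bases, the pattern was found in 6, a share of 0.0171%, under the symbols RARB, CYP26A1, COL24A1 and 2 uncharacterized loci. RARB was the only receptor of the set among them, out of 40 with a promoter entry. A match describes the sequence and does not show binding. A gene-level FPKM does not tell which start was used.

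RARB was at 66.5 FPKM in H522, 24.8 in H716, 13.6 in 1321N1, 8.68 in COV318, 0.394 in KLE, 0.290 in HEC59, 0.213 in H661 and 0.182 in H146. The lines thus split into 4 with clear RARB and 4 below 1, and the highest was 365 times the lowest. Neither side was 1 tissue, since the 3 lung lines held both the highest and the lowest level. RARA, the most widely expressed isotype, was at 9.37 FPKM in H522, 5.2 in 1321N1, 4.76 in KLE, 4.32 in COV318, 3.08 in H661, 2.81 in HEC59, 2.44 in H716 and 0.649 in H146. RARA shares 11.8% of its exon bases with the opposite-strand gene RARA-AS1. The labels do not say whether strand was used, so reads of the pair within those shared bases cannot be told apart. RARG, the isotype prominent in skin and cartilage, was at 5.38 FPKM in H522, 5.13 in H661, 4.49 in 1321N1, 3.52 in KLE, 1.16 in H716, 0.810 in COV318, 0.687 in HEC59 and 0.248 in H146.

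Within the family, the leading isotype therefore differed by line. RARB made up 81.84% of summed retinoic acid receptor FPKM in H522, 87.33% in H716, 62.87% in COV318 and 58.37% in 1321N1. RARA led in HEC59 (74.18%), H146 (60.14%) and KLE (54.90%), and RARG led in H661 (60.87%). H146 was low for all 3 isotypes, with a family sum of 1.08 FPKM against 3.79 to 81.2 FPKM elsewhere.

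Retinoid X receptors, the shared dimer partners, were carried by RXRB in every line. RXRB ranged from 5.03 FPKM (HEC59) to 14.6 FPKM (H522), a 2.90-fold span, and made up 56.27% to 99.79% of the family sum. RXRA was at 7.98 FPKM in 1321N1, 3.96 in H522, 3.91 in HEC59, 2.83 in H716, 2.62 in H661, 1.87 in KLE, 0.401 in COV318 and 0.0202 in H146. COV318 and H146 were thus below detection for RXRA while both held RXRB. RXRG was listed at 0 in all 8 lines.

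**Figure D2:**
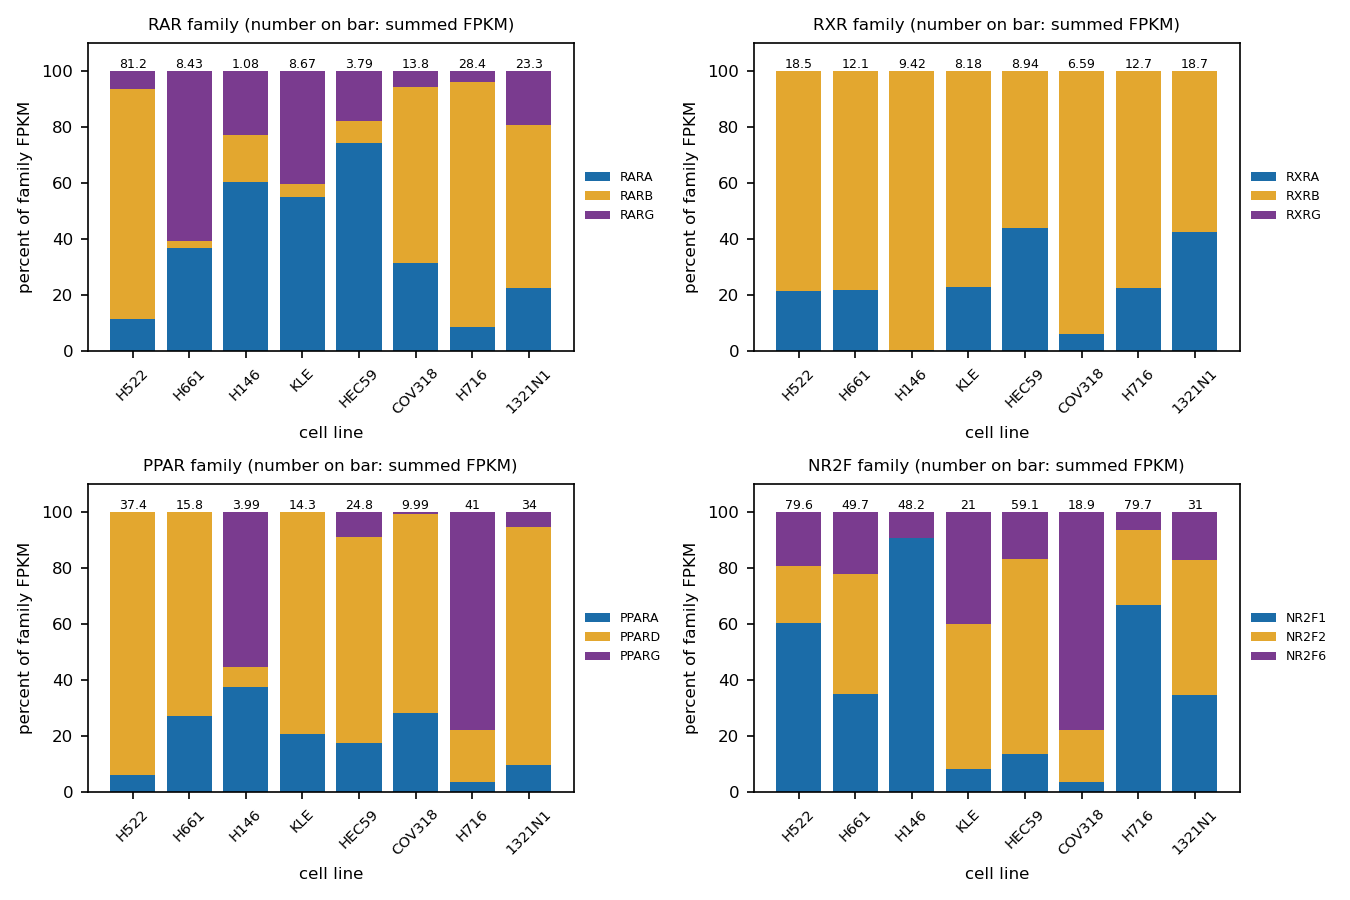
Share of each isotype in the summed FPKM of its family (percent, stacked bars) for the RAR, RXR, PPAR and NR2F families in the 8 lines, with the summed FPKM printed above each bar. RXRB is the larger share in all 8 lines, whereas the leading RAR, PPAR and NR2F isotype changes between lines.

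CYP26A1 was at 8.04 FPKM in H661, 7.44 in H522, 0.994 in KLE, 0.940 in COV318, 0.415 in H146, 0.136 in HEC59, 0.107 in H716 and 0.00952 in 1321N1. H522 was therefore high for both genes, H661 was high for CYP26A1 with RARB at 0.213, and H716 and 1321N1 were high for RARB with CYP26A1 near 0. DHRS3, a retinaldehyde reductase, was highest in KLE at 158 FPKM, where RARB was at 0.394. It was next at 24.3 FPKM in COV318, 12.2 in H716 and 7.06 in H522, all lines with clear RARB. DHRS3 was below 1 in 1321N1, which also had clear RARB, and in HEC59, H661 and H146. CRABP2, which carries retinoic acid to the nucleus, was at 43.6 FPKM in H661 and at 0 in H716 and H146. All 8 genes of the retinoic acid target list reached 1 in some line, none reached it in all 8, and none was highest in H522.

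The retinaldehyde dehydrogenases that produce retinoic acid were divided among the lines. ALDH1A1 was at 2318 FPKM in H522, 696 in H661, 164 in H716 and 141 in H146, at 3.19 in KLE, and below 1 in HEC59, COV318 and 1321N1. ALDH1A2 was at 61.1 FPKM in KLE, 27.8 in COV318 and 15.4 in H716, and at 0.430 or less in the other 5 lines. ALDH1A3 was at 116 FPKM in KLE and 0.420 or less elsewhere. In HEC59 and 1321N1 none of these 3 enzymes reached 1.

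**Figure D3:**
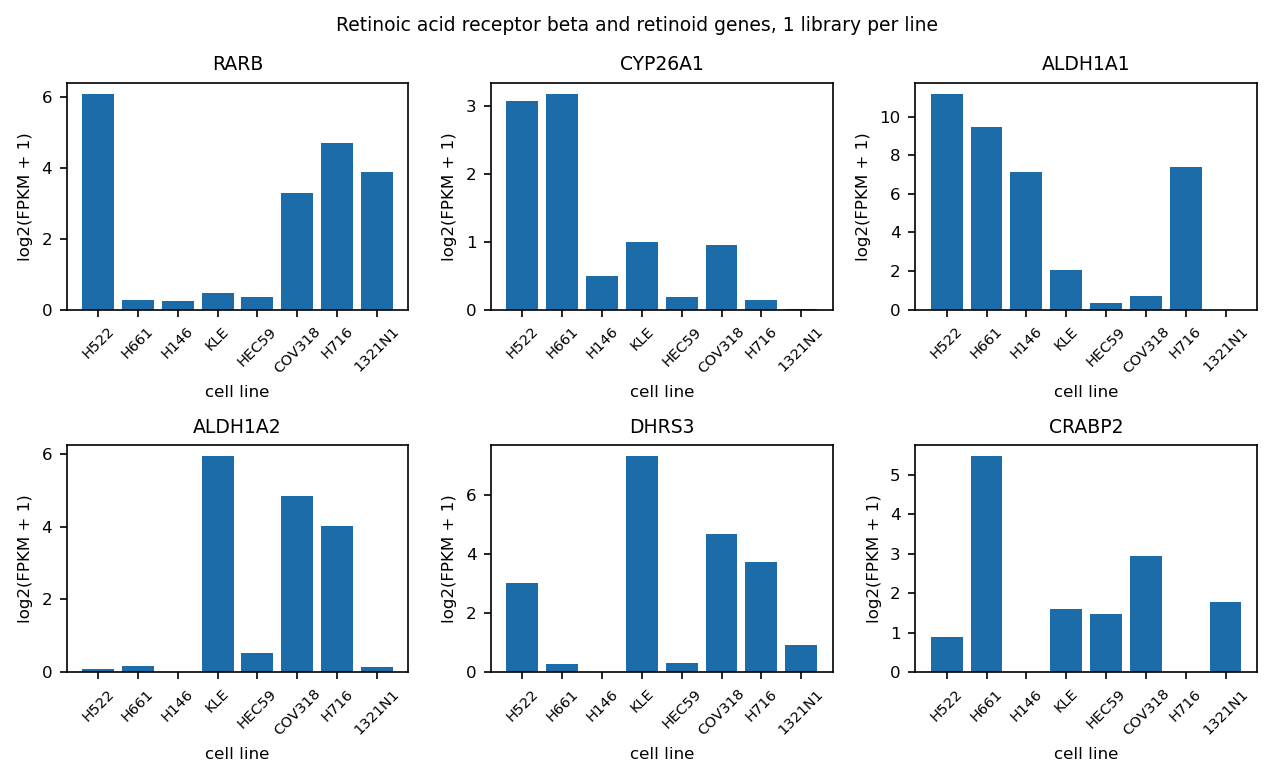
Level of RARB, CYP26A1, ALDH1A1, ALDH1A2, DHRS3 and CRABP2 as log2(FPKM + 1) (bars, 1 library each) in the 8 lines, with a separate vertical scale per gene. RARB is high in H522, H716, 1321N1 and COV318, a different set of lines from those high in any of the other 5 genes.

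Among steroid receptors, the receptors of glucocorticoids and mineralocorticoids were present and the sex steroid receptors were close to absent. NR3C1, the glucocorticoid receptor, was detected in all 8 lines at 34.7 FPKM in 1321N1, 18.2 in COV318, 17.2 in H661, 15.6 in KLE, 10.1 in HEC59, 5.2 in H522, 4.23 in H146 and 1.59 in H716. It was the leading receptor of 1321N1 and COV318, and its highest level was 21.8 times its lowest. NR3C2, the mineralocorticoid receptor, was at 11.5 FPKM in HEC59, 9.12 in COV318, 4.80 in H716, 3.31 in KLE, 0.278 in H661, 0.203 in H146, 0.133 in 1321N1 and 0.0358 in H522. The endometrial, ovarian and cecal lines were thus above 3 and the lung and glial lines below 0.3. NR3C2 exceeded NR3C1 in HEC59 and H716.

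ESR1, estrogen receptor alpha, did not reach 1 in any line, and its highest level was 0.883 FPKM in H716. In the endometrial lines ESR1 was at 0.507 FPKM in KLE and listed at 0 in HEC59, and it was also listed at 0 in COV318. ESR2, estrogen receptor beta, reached 1 only in HEC59, at 1.14 FPKM. PGR, the progesterone receptor and a classical estrogen-induced gene, was highest in HEC59 at 0.787 FPKM and listed at 0 in 6 of the 8 lines. Of 8 known estrogen target genes, 7 reached 1 in some line. H716, the line with the highest ESR1, though below detection, held the highest level of 3 of those 7, beside 13.4% of all genes. They were XBP1, a secretory pathway factor, at 60.8 FPKM, the chemokine CXCL12 at 2.11 FPKM and the trefoil peptide TFF1 at 1.36 FPKM. TFF3, a related peptide, was at 91.7 FPKM in H146 and 75 FPKM in H716 and did not exceed 0.0805 FPKM elsewhere. Other targets were low in H716. GREB1 was listed at 0 there and was highest in 1321N1 at 3.95 FPKM. IGFBP4 was 0.589 FPKM in H716 and 91.8 FPKM in KLE, and CA12 was 0.673 FPKM in H716 and 11.9 FPKM in 1321N1.

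Known glucocorticoid targets divided between the line highest for NR3C1 and others. Of 7 targets that reached 1 in some line, 3 were highest in 1321N1, beside 15.4% of all genes. They were ERRFI1, a feedback inhibitor of EGF receptors, at 66.6 FPKM, the kinase SGK1 at 19.1 FPKM and the transcription factor KLF9 at 4.37 FPKM. SGK1 was lowest at 0.315 FPKM in H716, the line lowest for NR3C1. It did not follow NR3C1 in other lines. SGK1 was next highest at 15.3 FPKM in H146, where NR3C1 was at 4.23, and was 3.06 FPKM in COV318, where NR3C1 was at 18.2. FKBP5, a chaperone of the receptor and its best-known target, was highest in H522 at 112 FPKM, where NR3C1 was at 5.2, and was at 11.2 FPKM in 1321N1. TSC22D3 was highest in COV318 at 8.46 FPKM and lowest in H146 at 0.110 FPKM. HSD11B2, the enzyme that shields the mineralocorticoid receptor from cortisol, was highest in HEC59 at 5.55 FPKM, the line with the highest NR3C2. HSD11B2 was next at 2.29 FPKM in H716 and was 0.169 FPKM in COV318, the line second highest for NR3C2.

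Estrogen-related receptors bind similar DNA without estrogen and act with PGC-1 coactivators on energy metabolism. ESRRG was at 16.1 FPKM in H716, 4.33 in H661, 2.85 in COV318, 2.35 in H146, 1.49 in KLE, 0.177 in 1321N1, 0.0712 in HEC59 and 0 in H522. H716 was thus 3.72 times the next line. ESRRA varied between 0.683 FPKM (KLE) and 1.76 FPKM (COV318), and ESRRB was at 0.0302 FPKM or less. ESRRA overlaps TRMT112 on the opposite strand over 9.4% of its exon bases. PPARGC1A, the inducible PGC-1 coactivator, was at 121 FPKM in KLE, 47.0 in COV318, 18.5 in H716, 7.07 in 1321N1, 1.52 in H146, 1.37 in HEC59, 0.918 in H522 and 0.0630 in H661.

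The thyroid hormone receptors differed in breadth. THRA, the form prominent in heart and brain, was in all 8 lines between 1.59 FPKM (H146) and 7.19 FPKM (H716). THRB, the form that mediates feedback in the pituitary and hormone action in liver, was at 31.6 FPKM in HEC59, 10.4 in COV318, 5.31 in KLE, 4.22 in H146, 2.0 in 1321N1, 0.129 in H522, 0.0309 in H661 and 0.00620 in H716. THRB was the larger part of the pair in HEC59 (94.26%), H146 (72.67%), COV318 (66.12%) and KLE (62.47%), and THRA in the other 4. THRA shares 263 exon bases with NR1D1 on the opposite strand, 3.8% of its own.

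DIO2, the deiodinase that activates thyroid hormone, reached 1 only in H522, at 1.29 FPKM, while DIO1 stayed below 1 and DIO3 was listed at 0 throughout.

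Fatty acid receptors split into a common PPARD pattern and a PPARG pattern centred on the cecal line. PPARD, a broadly expressed regulator of fatty acid oxidation, was at 35.1 FPKM in H522, 28.8 in 1321N1, 18.2 in HEC59, 11.5 in H661, 11.3 in KLE, 7.62 in H716, 7.09 in COV318 and 0.286 in H146. H146 was the only line in which PPARD was not detected. PPARG, the regulator of fat cell differentiation that is also known in colonic epithelium, was at 31.9 FPKM in H716, 2.25 in HEC59, 2.22 in H146, 1.90 in 1321N1, 0.0843 in COV318 and 0 in H522, H661 and KLE. H716 was thus 14.2 times the next line, and PPARG made up 77.92% of its PPAR sum. PPARG also led the family in H146, with 55.58% of a low PPAR sum of 3.99 FPKM. PPARA, prominent in liver, lay between 1.43 FPKM (H716) and 4.31 FPKM (HEC59).

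The HNF4 receptors, which specify liver and gut epithelium and bind DNA as homodimers, were highest in the same line as PPARG. HNF4A was at 16.1 FPKM in H716, 1.75 in H146, 1.60 in HEC59, 0.0160 in 1321N1, 0.0119 in H661, 0.00808 in H522 and 0 in KLE and COV318. HNF4G was at 13.4 FPKM in H716, 2.80 in KLE, 0.938 in COV318, 0.789 in 1321N1, 0.543 in HEC59, 0.227 in H661, 0.0978 in H146 and 0 in H522. H716 was 9.2 times the next line for HNF4A and 4.77 times for HNF4G. NR5A2 and NR1H4, further receptors of gut and liver, did not reach 1 there, although the highest NR1H4 level, 0.992 FPKM, was in H716. Of 6 hepatocyte markers 3 reached 1 in H716, with a summed level of 85.4 FPKM, nearly all of it ALB at 80.3 FPKM, against 3.25 FPKM or less in the other lines. The part of these markers in the receptor levels was not tested.

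Target genes of these receptors were only partly high in H716. Of 11 listed HNF4 targets, 6 reached 1 anywhere, and 3 of those 6 were highest in H716, where 13.4% of all genes reaching 1 had their highest level. They were CDH17, an intestinal cadherin, at 137 FPKM, CDX2, an intestinal homeobox factor, at 1.31 FPKM, and TTR, a thyroid hormone carrier protein, at 1.12 FPKM. Others were not there at all, since APOA1, APOA4, FABP1 and MTTP were listed at 0 in H716. This was not particular to H716 for APOA4 and FABP1, listed at 0 in all 8 lines, or for MTTP, at 0.473 FPKM or less throughout. VIL1, the brush border protein villin, was higher in H146 (8.74 FPKM) than in H716 (1.07 FPKM). Only CDH17 of the 3 was above 5 FPKM. CDH17 and CDX2 are also among the intestinal markers, and TTR among the hepatocyte markers, so the target count partly repeats the marker counts.

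Of 6 listed PPAR targets, 5 reached 1 anywhere, and 1 of those 5, PDK4, a kinase that spares glucose, was highest in H716 at 2.15 FPKM. PLIN2, a lipid droplet coat protein, was highest in H661 (20.1 FPKM) and H522 (17.7 FPKM), both with PPARG at 0, and was 1.82 FPKM in H716. CPT1A, which admits fatty acids to mitochondria, was highest at 28.2 FPKM in H522, the line with the highest PPARD, and was the only 1 of the 5 highest there. FABP4, the fat cell marker, was listed at 0 in all 8 lines.

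**Figure D4:**
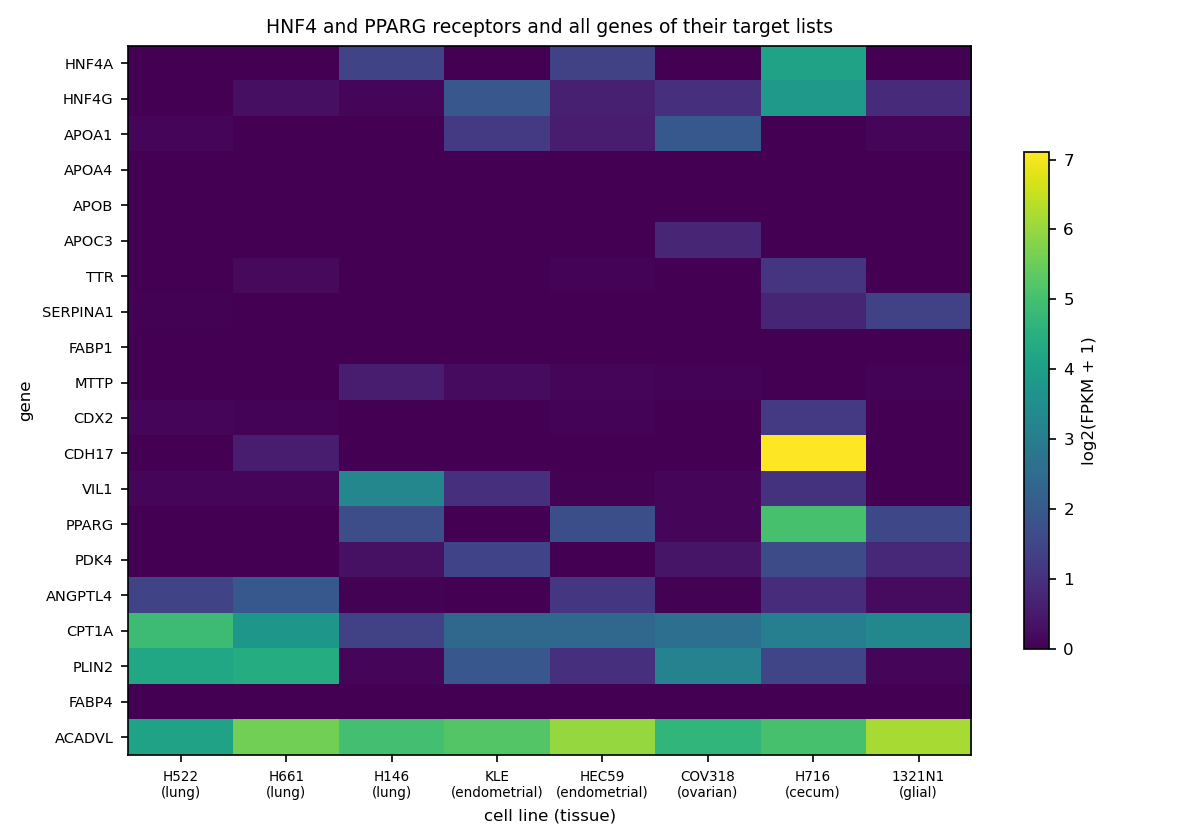
HNF4A, HNF4G and their 11 listed target genes, then PPARG and 6 listed PPAR target genes, as log2(FPKM + 1) by colour in the 8 lines. The 3 receptors, CDH17 and PDK4 are highest in the H716 column, while PLIN2 and CPT1A are highest in H661 and H522.

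The REV-ERB repressors of the circadian clock were present in every line. NR1D2 ranged from 7.72 FPKM (H522) to 34.1 FPKM (1321N1), was the leading receptor of KLE at 28.7 FPKM, and led the pair in 7 lines. NR1D1 was at 15 FPKM in 1321N1, 13.1 in H522, 9.44 in H716, 6.16 in KLE, 3.70 in H661, 3.52 in COV318, 1.72 in HEC59 and 1.45 in H146, and led only in H522 (62.95%). NR1D1 shares 9.5% of its exon bases with THRA. Their activating counterparts were low, with RORA between 0.464 FPKM (H716) and 2.56 FPKM (H146) and RORB at 2.46 FPKM in 1321N1 and 0.0151 FPKM or less elsewhere. All 11 listed clock genes reached 1 somewhere and 7 did so in all 8 lines. ARNTL, the clock activator BMAL1 that REV-ERB represses, stayed between 1.35 FPKM (H522) and 4.16 FPKM (H716), a narrower span than that of its binding partner NPAS2, which reached 21.5 FPKM in HEC59 and 15.6 FPKM in 1321N1 but 0.0220 FPKM in H146.

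Oxysterol, vitamin D and xenobiotic receptors were modest. NR1H2, the broadly expressed liver X receptor, was 10.2 FPKM in 1321N1 and 1.73 to 4.55 FPKM in the other 7 lines, and NR1H3 lay between 0.774 FPKM (KLE) and 4.47 FPKM (HEC59). ABCA1, the cholesterol exporter that liver X receptors induce, was highest in H661 at 9.09 FPKM, where NR1H2 was 1.78 FPKM and NR1H3 1.05 FPKM, and was 0.00970 FPKM in H146. Of 6 liver X receptor targets, 3 were highest in HEC59, the line highest for NR1H3, beside 10.3% of all genes. MYLIP, a ligase that degrades the LDL receptor, was 19.7 FPKM in HEC59 and 12.4 FPKM in H716. SCD, a desaturase, was 304 FPKM in HEC59 and 209 FPKM in H716. SREBF1, the lipid synthesis factor, was nearly tied, at 11.1 FPKM in HEC59 and 10.7 FPKM in 1321N1. None of the 6 was highest in 1321N1, the line highest for NR1H2. VDR reached 1 only in KLE, at 2.67 FPKM, and its target CYP24A1 was 0.309 FPKM there. NR1I3 was between 0.377 FPKM (HEC59) and 1.88 FPKM (COV318), but part of its exons, the largest share of any receptor here, overlaps TOMM40L on the opposite strand. NR1I2, the xenobiotic sensor PXR, did not exceed 0.0530 FPKM.

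The COUP-TF orphan receptors, developmental repressors that compete for many receptors' binding sites, held some of the highest levels. NR2F1 (ENSG00000175745) was at 53.1 FPKM in H716, 48.0 in H522, 43.6 in H146, 17.4 in H661, 10.7 in 1321N1, 8.02 in HEC59, 0.664 in COV318 and 1.70 in KLE. It was the leading receptor of H716 and H146. NR2F2 (ENSG00000185551), known in endometrial stroma and venous endothelium, was at 41.1 FPKM in HEC59, 21.4 in H716, 21.3 in H661, 16 in H522, 15 in 1321N1, 10.9 in KLE, 3.49 in COV318 and 0 in H146. It was the leading receptor of HEC59. H146 was thus high for NR2F1 and listed at 0 for NR2F2, and NR2F1 made up 90.42% of its NR2F sum. COV318 was low for both, and there NR2F6 made up 78.06% of the sum at 14.8 FPKM. NR2F6 was in all 8 lines, between 4.62 FPKM (H146) and 15.6 FPKM (H522).

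NR2E1, the tailless homologue of neural stem cells, was at 24.3 FPKM in H661, 0.162 in H522, 0.0852 in H716, 0.0699 in COV318, 0.0202 in KLE, 0.0138 in H146 and 0 in 1321N1 and HEC59. H661 was thus 150 times the next line, and NR2E1 was its leading receptor. Its relative NR2E3 did not exceed 0.391 FPKM. The testicular receptors were even, NR2C1 between 6.5 FPKM (H146) and 12.7 FPKM (H661) and NR2C2 between 8.94 FPKM (H661) and 20.7 FPKM (1321N1). NR2C2 overlaps MRPS25 on the opposite strand over 10.1% of its exon bases.

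The remaining orphans were low. NR4A1, which growth signals induce within minutes, was highest in H522 at 3.41 FPKM and lowest in KLE at 0.0671 FPKM, and 10.3% of its exon bases overlap an opposite-strand gene. NR4A2 lay between 0.190 FPKM (H522) and 2.22 FPKM (1321N1), and NR4A3 did not exceed 0.522 FPKM. NR6A1, an embryonic and germ cell factor, lay between 0.241 FPKM (HEC59) and 2.97 FPKM (H661). NR0B2, which lacks a DNA-binding domain, reached 1 in H146 (2.36 FPKM) and COV318 (1.09 FPKM). NR5A1, the steroidogenic factor, was above 0 only in H661 at 0.107 FPKM, and NR5A2 did not exceed 0.360 FPKM.

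Most detected receptors were not shared by all lines. Of the 35 detected anywhere, 10 were detected in all 8 lines, beside 44.6% of the 19209 genes that reached 1 in any line. These 10 were NR3C1, THRA, RXRB, PPARA, NR1D1, NR1D2, NR1H2, NR2C1, NR2C2 and NR2F6. Detection was confined to 1 line for 4 receptors, ESR2, RORB, VDR and NR2E1, beside 18.5% of all genes. Each line had 22 to 26 receptors detected. Their summed level ranged from 130.13 FPKM in H146 to 287.31 FPKM in H522. Of the 35 receptors, 8 had their highest level in 1321N1, beside 15.4% of all genes, 7 in H522, beside 16.2%, 6 in H716, beside 13.4%, and 6 in HEC59, beside 10.3%. H661 held the highest level of 3, beside 9.51%, COV318 of 2, beside 10.8%, H146 of 2, beside 13.7%, and KLE of 1, beside 10.7%. Receptors that passed the filter used for testing had a median range across lines of 2.05 on the log2(FPKM + 1) scale, and all genes that passed it 1.94.

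Most coregulators, the proteins that receptors recruit to activate or silence genes, were detected in every line. Of 13 coactivators, 12 reached 1 in all 8 lines, PPARGC1A being the exception, and of 9 corepressors 8 did so, NRIP1 being the exception. NRIP1, a ligand-dependent corepressor also known as RIP140, was at 40.3 FPKM in KLE and 0.711 FPKM in H522, the line with the highest RARB. PPARGC1A and NRIP1 were both highest in KLE.

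Tissue comparisons were fitted with limma on log2(FPKM + 1) over 15650 genes that reached an FPKM of 1 in at least 2 lines, with Benjamini-Hochberg adjustment over all of them. The filter kept 31 of the 45 receptors. No receptor passed an adjusted p of 0.05 in any of the 3 comparisons, under any of the 16 settings tried for each. The 3 comparisons use the same 8 lines and are not independent.

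The 3 endometrial and ovarian lines were first set against the other 5 lines, since these organs are the best known sites of sex steroid receptors. No receptor was called, beside 0.198% of all genes, and 4 of 31 had an unadjusted limma p under 0.05, beside 7.3% of all genes. These 4 were NR2F1, THRB, NR3C2 and RXRB. For 3 of the 31 the groups did not overlap, beside 5.35% of all genes: THRB (ENSG00000151090) with every endometrial and ovarian line above the rest, NR2F1 and RXRB with every one below. The median difference was -0.03 over the 31 receptors and -0.05 over all genes. The summed level of 6 epithelial markers was 253.7 to 2247.31 FPKM in the 3 lines and 16.03 to 373.96 FPKM in the other 5, and its part in these differences was not tested.

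NR2F1 had the largest difference. Its log2(FPKM + 1) level was 1.78 ± 1.26 (SD, n = 3 lines) in the endometrial and ovarian lines and 4.92 ± 0.99 (SD, n = 5 lines) in the others. The limma difference was -3.14 (SE 0.69, adjusted p = 0.209), and it was -3.76 within set A and -2.56 within set B. Over the 16 settings its limma adjusted p ranged from 0.061 (without HEC59, the endometrial line with the highest NR2F1) to 0.519.

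THRB was 3.73 ± 1.20 (SD, n = 3) against 0.84 ± 1.09 (SD, n = 5) on the same scale. Its limma difference was 2.89 (SE 0.73, adjusted p = 0.312), and 2.58 within set A and 2.28 within set B. Over the 16 settings its limma adjusted p ranged from 0.163 to 0.647. The nearest lines of the 2 groups were KLE at 5.31 FPKM and H146 at 4.22 FPKM, so the separation was narrow.

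NR3C2 was 3.03 ± 0.81 (SD, n = 3) against 0.68 ± 1.04 (SD, n = 5), a limma difference of 2.35 (SE 0.65, adjusted p = 0.352), with 1.13 within set A and 3.27 within set B. H716 at 4.80 FPKM lay above KLE at 3.31 FPKM, so the groups overlapped, and the limma adjusted p ranged from 0.091 (without H716) to 0.736 over the 16 settings. RXRB was 2.77 ± 0.15 (SD, n = 3) against 3.54 ± 0.24 (SD, n = 5), a difference of -0.77 (SE 0.32, adjusted p = 0.647). Its difference was -0.73 within set A and -0.75 within set B, and 6.2% of its exon bases overlap SLC39A7 on the opposite strand. RARB differed by -1.66 (SE 1.41), PPARG by -1.05 (SE 1.07) and NR3C1 by 0.78 (SE 0.78), with adjusted limma p of 0.831, 0.871 and 0.867. Within sets A and B these differences were -3.20 and -0.23 for RARB, -1.68 and -0.70 for PPARG, and 1.32 and 0.09 for NR3C1.

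**Figure D5:**
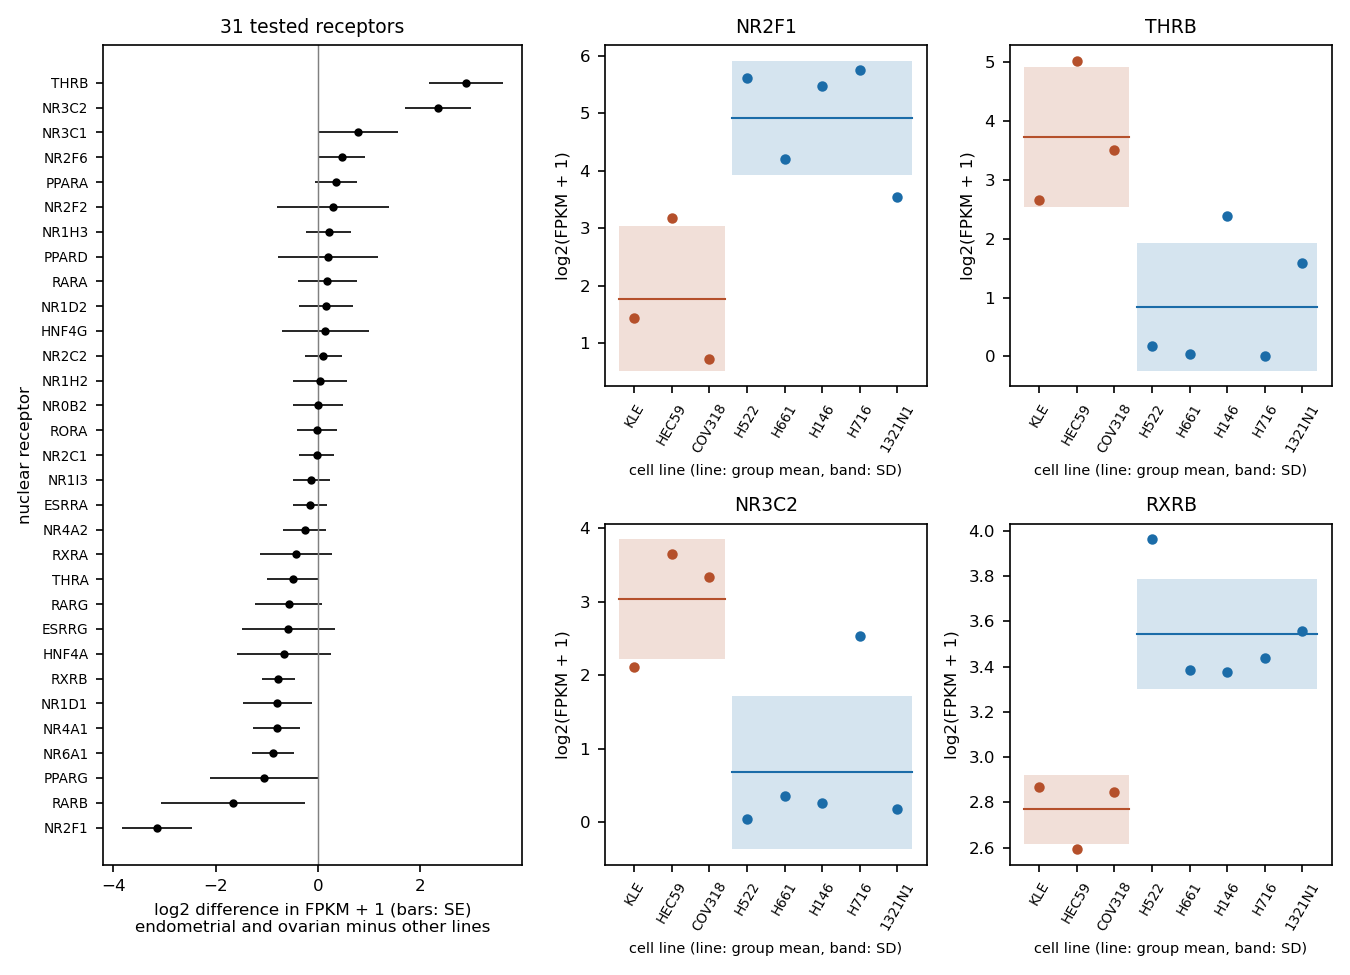
Left, limma difference in log2(FPKM + 1) between the 3 endometrial and ovarian lines and the other 5 lines for the 31 tested receptors, with bars of 1 SE. Right, each line's level for NR2F1, THRB, NR3C2 and RXRB (points), with group means (lines) and SD (bands), on vertical scales that differ between panels. NR2F1 and RXRB are lower and THRB higher in every endometrial and ovarian line, and for NR3C2 the H716 point lies above KLE.

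The endometrial lines alone were compared with the other 6. No receptor was called, beside 0.00639% of all genes, and 1 of 31, THRB, had an unadjusted limma p under 0.05, beside 4.82% of all genes. No receptor separated the 2 groups without overlap, beside 6.96% of all genes. THRB differed by 2.56 (SE 1.04), with 2.58 within set A and 2.53 within set B. RARB differed by -2.65 (SE 1.46), since both endometrial lines were under 0.4 FPKM, as were H661 and H146. RARB passed the filter only through lines outside the endometrial group, so its direction, also within the sets, followed from the filter. NR3C2 differed by 1.75 (SE 0.97), NR2F2 by 1.28 (SE 1.16), NR2F1 by -1.92 (SE 1.23) and ESRRG by -1.03 (SE 0.99). The adjusted limma p was 0.954 for each of these 6. The NR2F2 difference changed sign between the sets, from -0.78 within set A (KLE alone) to 3.34 within set B (HEC59 alone). That of NR2F1 was -3.76 within set A and -0.08 within set B. For RARB the within-set values were -3.20 and -2.09, for NR3C2 1.13 and 2.38, and for ESRRG -0.85 and -1.21. HEC59 and KLE themselves stood apart for THRB (31.6 and 5.31 FPKM) and NR2F2 (41.1 and 10.9 FPKM).

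The 3 lung lines were compared with the other 5. No receptor was called, beside 0.0256% of all genes, and 2 of 31, NR3C2 and NR4A1, had an unadjusted limma p under 0.05, beside 5.94% of all genes. NR4A1 was higher and HNF4G lower in every lung line than in every other line, beside 4.3% of all genes without overlap. HNF4G and NR3C2 passed the filter only through lines outside the lung group, so their direction followed from the filter. The median difference was -0.16 over the 31 receptors and -0.02 over all genes.

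NR2F1 was 2.17 higher in lung lines (SE 1.01, limma adjusted p = 0.821), with 1.31 within set A and 2.99 within set B. NR4A1 differed by 1.06 (SE 0.40, limma adjusted p = 0.794), on levels of 1.90 to 3.41 FPKM in lung lines and 0.0671 to 1.5 FPKM elsewhere, and by 1.28 within set A and 0.73 within set B. NR6A1 differed by 0.80 (SE 0.43, limma adjusted p = 0.857), with 0.78 within set A and 0.91 within set B. In the other direction NR3C2 differed by -2.14 (SE 0.72, limma adjusted p = 0.725), and by -2.12 within each set. THRB differed by -1.69 (SE 1.05, limma adjusted p = 0.869) and HNF4G by -1.49 (SE 0.70, limma adjusted p = 0.822). Within sets A and B these were -1.22 and -0.99 for THRB and -2.74 and -0.67 for HNF4G. Within the lung group H146 was low for RXRA and PPARD, with RXRA at 0.0202 and PPARD at 0.286 FPKM against 2.62 or more and 11.5 or more in H522 and H661, while its RXRB at 9.40 FPKM was close to the 9.45 FPKM of H661. When FPKM values were rescaled to a common sum, the share of all genes higher in lung lines moved from 48.4% to 60%, and receptors with a higher mean went from 12 of 31 to 17 of 35.

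None of the 119 genes in the 15 lists of coregulators, targets and ligand enzymes was called in any of the 3 comparisons. ALDH1A1 differed by 7.16 between lung and other lines (SE 1.62, limma adjusted p = 0.320), and H716 at 164 FPKM lay above H146 at 141 FPKM. RARRES3, a retinoid-inducible gene, was above the other lines in all 3 endometrial and ovarian lines and differed by 1.85 (SE 0.45, limma adjusted p = 0.312).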

How the data were processed

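RNA-seq of 8 cancer cell lines, 1 library each, was deposited by the authors as 1 table of FPKM values per line. Per the submitters' processing notes, CASAVA 1.4, TopHat2 2.0.8, SAMtools 1.0 and the GRCh37 build were used; the program that made the FPKM values, its annotation, its use of strand and its read totals: not given in the sources used here. Groups follow the labelled tissue. For a symbol with several identifiers the one with the highest mean was used (RXRA and RXRB, whose other identifiers were at 0). Values were tested as log2(FPKM + 1) with limma 3.58.1 (eBayes with trend, R 4.3.3), two-sided, over genes that reached an FPKM of 1 in 2 lines or more; the fitting script was tested on simulated data. A difference on this scale understates the fold change of low genes. The receptors and gene lists were chosen with earlier results of these data known, so no p-value was adjusted over a list alone. Every line's value was to be given for receptors with a highest FPKM of 5 or more that spanned at least 8-fold or were detected in 3 to 6 lines. In each comparison, receptors without overlap and the 3 largest differences in each direction were to be named. Alternatives were pseudocounts of 0.1 and 5, no filter, upper-quartile, quantile and common-sum scaling, a term for the 2 sets of lines, and leaving out each line. Exon overlaps come from GENCODE 29. Promoters come from RefSeq, which had 40 of the 45 receptors; NR4A2, VDR, HNF4G, NR0B2 and NR2F6 had no entry in the table used. A few genes of the target and enzyme lists are not reported here.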

Additional observations from a re-analysis of the deposited data

How the results depend on the processing

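No receptor was called in any comparison under any of the 16 settings, and none of the receptors named in a comparison changed direction. The counts of all genes called did move. For endometrial and ovarian against other lines the count went from 31 to 11 with a pseudocount of 5, 8 without the filter, 14 with a term for the 2 sets, and 16 (without H661) to 89 (without HEC59) when 1 line was left out; it was 20 without H716. For endometrial against other lines it went from 1 to 4 with a pseudocount of 5, 20 without the filter, 4 after rescaling, and 1 to 30 with 1 line left out; it was 30 without COV318, 5 without H146, 4 without KLE and 2 without HEC59. For lung against other lines it went from 4 to 11 and 2 with pseudocounts of 0.1 and 5, 1 without the filter, 15 after rescaling (8 higher, 7 lower), 2 with the set term, and 1 to 16 with 1 line left out; leaving out H661 gave 8, leaving out H716 gave 13, leaving out H146 gave 16, leaving out COV318 gave 1, and leaving out HEC59 or 1321N1 gave 2 each. The cause was not tested. At an FPKM of 5 as the limit, 23 receptors were detected anywhere and 4 in all 8 lines. After rescaling 16 were detected in all 8. Rescaling also moved all genes reaching 1 in at least 2 lines from 15650 to 19327, and receptors from 31 to 35. The share of all genes detected in all 8 lines is not given for either change, so these counts cannot be set beside the 44.6% above. With targets at 5 or more, 1 HNF4 target and 0 PPAR targets were highest in H716. Rescaling moved the median of all genes in the lung comparison from -0.02 to 0.15. No paired analysis was possible because the labels give no replicate numbers that join lines of different tissues. Values rest on 1 library per line of unknown depth.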

Other observations

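Enzymes that shape steroid supply were uneven across the lines. SULT1E1, which inactivates estrogens by sulfation, was at 10.8 FPKM in H716, 0.697 FPKM in KLE and 0.120 FPKM or less in the other 6 lines. STS, the sulfatase that reverses that step, was also highest in H716 at 11.3 FPKM and lay between 2.11 and 9.60 FPKM elsewhere. SRD5A1, a steroid reductase, was 43.5 FPKM in H716 and 4.04 to 18.3 FPKM in the other 7 lines. CYP19A1, the aromatase, reached 1 only in COV318 at 1.08 FPKM, and CYP11A1 and STAR, which start steroid synthesis, stayed below 1 throughout.

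Immediate-early genes, which are induced along with NR4A1 by growth signals, were lowest in H146 for 6 of the 8 listed genes, JUN and IER2 being the exceptions. JUN was 4.95 FPKM in H146 and lowest in H522 at 0.700 FPKM, and IER2 was 3.15 FPKM in H146 and lowest in KLE at 1.09 FPKM. EGR1 was 0.622 FPKM in H146 and 7.76 to 137 FPKM in the other 7 lines, and FOS was 0.124 FPKM there and 3.66 to 23.4 FPKM elsewhere. NR4A1 did not share that low, since it was 1.90 FPKM in H146 and lowest in KLE at 0.0671 FPKM, where EGR1 was 7.76 FPKM and FOS 13.7 FPKM.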
